A study of Mus musculus with 12 samples.

Results

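Genes on either side of the Bcl3 locus on mouse chromosome 7 were examined in cultured calvarial osteoblasts of wild-type (WT) and Bcl3-/- mice. The genes were chosen by position and by level: every gene whose start lies within 5 Mb of the start of Bcl3 (chr7:14808462-24808462, GRCm38) and that reached at least 1 CPM (gene counts scaled to a common library size) in at least 3 of the 12 libraries, leaving out Bcl3, Relb, Apoe and Fosb. Of 496 annotated genes in this window, 84 passed, 408 stayed below the threshold and 4 were left out by name. All 84 were among the 16318 genes tested for a difference between groups, and 80 of them are protein coding. The measured values that selected them are their CPM levels. No member passed through the libraries of 1 group alone, but 2 passed through 1 genotype alone: Gm45104, at or above 1 CPM in 6 Bcl3-/- libraries and in 0 WT libraries, and Zfp296, in 3 WT libraries and in 0 Bcl3-/- libraries. Zfp296 (mean 0.679 CPM) and Mypopos (mean 0.990 CPM) were just inside the threshold, and Exoc3l2 (mean 0.457 CPM) and Gm26890 (mean 0.752 CPM) were just outside it.

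The cells were osteoblast cultures grown from the skull caps of C57BL/6J pups of postnatal day 3 to 5, and calvariae were pooled per culture, 1 to 3 of them by the labels, while the study's methods state a fixed pool of pups for every culture. The sequenced libraries form 4 groups of 3, since each genotype was sampled 1 day and 3 days after β-glycerophosphate and ascorbic acid had been added to start osteogenesis. The labels carry 6 codes, each found on 1 library of day 1 and 1 of day 3. These codes are read here as 6 cultures, 3 of each genotype, which is an inference. WT mice are described as littermates of the Bcl3-/- mice, while the supplementary methods describe age-matched timed matings run simultaneously between genotypes. Whether the sequenced cultures came from shared litters is not given. Both genotypes received the same medium, and the Bcl3 allele is the only genetic difference that the labels give.

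BCL3 is an atypical member of the IκB family. It enters the nucleus, binds p50 and p52 homodimers of NF-κB at κB sites and can raise or lower transcription there. A gene that is targeted in embryonic stem cells and then bred into another strain keeps DNA of the stem cell strain on either side, which is called flanking or passenger DNA. Genes in such DNA can differ from the recipient strain because of their own sequence, whatever the targeted gene does, and they lie closer to the targeted gene than recombination has yet reached. Neither the labels nor the study's methods give the strain of the stem cells or the extent of any such segment here, so for a gene in this window flanking DNA and loss of BCL3 cannot be told apart.

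Bcl3 itself (ENSMUSG00000053175, chr7:19808462-19822770, GRCm38) was measured first, as a check of the labels. On day 1 it stood at 17.95, 21.8 and 17.8 CPM in WT and at 17.5, 19.7 and 19.2 CPM in the libraries labelled Bcl3-/-, a log2 difference of -0.03 (SE 0.12, adjusted p = 0.887). WT libraries of day 3 held 14.8, 15.9 and 12.8 CPM and those labelled Bcl3-/- held 10.2, 9.71 and 8.31 CPM, so that Bcl3 was lower by a log2 fold change of -0.62 (SE 0.12, adjusted p = 0.00863). Counts over the whole gene thus did not separate the genotypes on day 1, and which exons the allele lacks is not given in the sources used here. Bcl3 also shares exon bases with Gm16175 on the opposite strand. The library kit does not mark strand, so reads from those bases cannot be told apart. Every direction that follows is therefore that of the libraries labelled Bcl3-/- against the libraries labelled WT.

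Total gene counts ran from 20009732 to 41953891 per library, with a median of 31792039. CPM values are after TMM normalization, which adjusts for differences in RNA composition. A gene was called when edgeR's quasi-likelihood test gave a Benjamini-Hochberg adjusted p under 0.05 over all genes tested. The osteoblast markers Runx2, Sp7, Alpl, Col1a1, Col1a2, Sparc and Spp1 were all measured in all 4 groups, and markers of macrophages (10 of 10 listed genes), skeletal muscle (9 of 14), endothelium (5 of 7), chondrocytes (4 of 5) and adipocytes (3 of 6) were also measured. The summed CPM of the endothelial markers was 6.19 to 6.74 in WT and 9.65 to 13.2 in Bcl3-/- libraries on day 1, and 9.51 to 12.1 against 19.4 to 23.2 on day 3, with Tek and Erg called higher on day 1 and Tek on day 3. Kdr was lower on day 1 without a call (log2 difference -0.81, adjusted p = 0.114). On day 3 Kdr and Erg differed by -0.04 and -0.08. Tek alone held 5.09 to 7.93 CPM in WT and 14.6 to 17.2 CPM in Bcl3-/- libraries on day 3. The adipocyte sums were 7.86 to 8.49 against 13.5 to 21.01 on day 1 and 7.92 to 8.09 against 24.4 to 36.7 on day 3, with Car3 called higher on both days and Pparg on day 3. Fabp4 was called on neither day, and the listed markers Adipoq, Plin1 and Cidec were not among the genes tested. Car3 alone held 0.45 to 0.64 CPM in WT and 3.85 to 12.4 CPM in Bcl3-/- libraries on day 1. On day 3 it held 0.30 to 0.71 against 8.26 to 22.9 CPM. Both sums thus separated the genotypes on both days, and their part in the members' values was not tested. The chondrocyte sums overlapped on day 1 (767.8 to 2469 against 782.3 to 1104) and on day 3 (353 to 1512 against 320.1 to 403.3), with Sox9 called higher on day 1 and Col2a1 lower on day 3. Between genotypes, 5 of 12 osteoblast markers were higher and 2 were lower on day 1 with the Bcl3-/- label, and 3 were higher and 2 were lower on day 3.

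The members fell into separate blocks. Of the 84, 64 began before Bcl3 and 20 after it, and 33 began within 1 Mb of it. The gene nearest on the far side, Pvr (an adhesion receptor of the immunoglobulin superfamily), began 0.10 Mb after Bcl3, and the next member was Zfp180 at 4.27 Mb. The 4.18 Mb between their starts held 185 annotated genes, of which 76 are Vmn1r vomeronasal receptor genes, and 0 members. On the other side no member began between Psg16 and Gm45104, a distance of 1.32 Mb. By transcript abundance (FPKM, which accounts for length) the highest mean levels were those of Selenow (226.2), Calm3 (131.3) and Ap2s1 (127.4), and the lowest, among 83 members with an FPKM value, were those of Zfp296 (0.518) and Zfp114 (0.568).

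On day 1, 21 of 84 members (25%) differed between genotypes, with 12 at a higher level and 9 at a lower level in libraries labelled Bcl3-/-. Among all 16318 genes tested 15.3% were called, 9.03% higher and 6.26% lower. On day 3, 11 members (13.1%) differed, 4 higher and 7 lower, against 10.4% of all genes, 4.78% higher and 5.6% lower. The members called in the same direction on both days numbered 8 (9.52%), 3 higher (Pnmal2, Gm45104 and Mill2) and 5 lower (C5ar1, Sympk, Zfp111, Kcnn4 and Smg9), against 4.9% of all genes, 2.82% higher and 2.08% lower. The remaining members did not pass the test in the same direction on both days. By these codes the 2 days come from the same 6 cultures, so they are taken as repeated measurements of 3 cultures per genotype. Counts summed over both days of each culture, 3 against 3, called 19 members (22.6%) against 10.8% of 17451 genes. These 19 include Gm45104 and Zfp296, which reached the level threshold through 1 genotype alone. The summed count was not repeated without them.

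These shares moved with single libraries. Without day 1 Bcl3-/- replicate 2, 8 members (9.52%) and 8.7% of all genes were called on day 1. Without day 1 WT replicate 1, the day 1 count was 9 (10.7% against 7.51%), without day 1 WT replicate 2 it was 10 (11.9% against 7.75%) and without day 1 Bcl3-/- replicate 3 it was 10 (11.9% against 9.25%). On day 3, 5 members (5.95% against 4.16%) were called without day 3 WT replicate 1 and 6 (7.14% against 4.18%) without day 3 Bcl3-/- replicate 2. The count for both days was 3 without day 3 WT replicate 1 (3.57% against 2.46% of all genes). It was 4 (4.76%) on leaving out replicate 2 (3.07% of all genes) or replicate 3 (3.15%) of day 1 Bcl3-/-, or replicate 2 of day 3 Bcl3-/- (2.28%). The summed count fell to 2 without culture B4 (2.38% against 0.946% of all genes), 4 without W1 (4.76% against 3.46%), 5 without B6 (5.95% against 3.98%), 9 without W2 (10.7% against 4.47%) and 10 without B3 (11.9% against 4.88%).

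**Figure D1:**
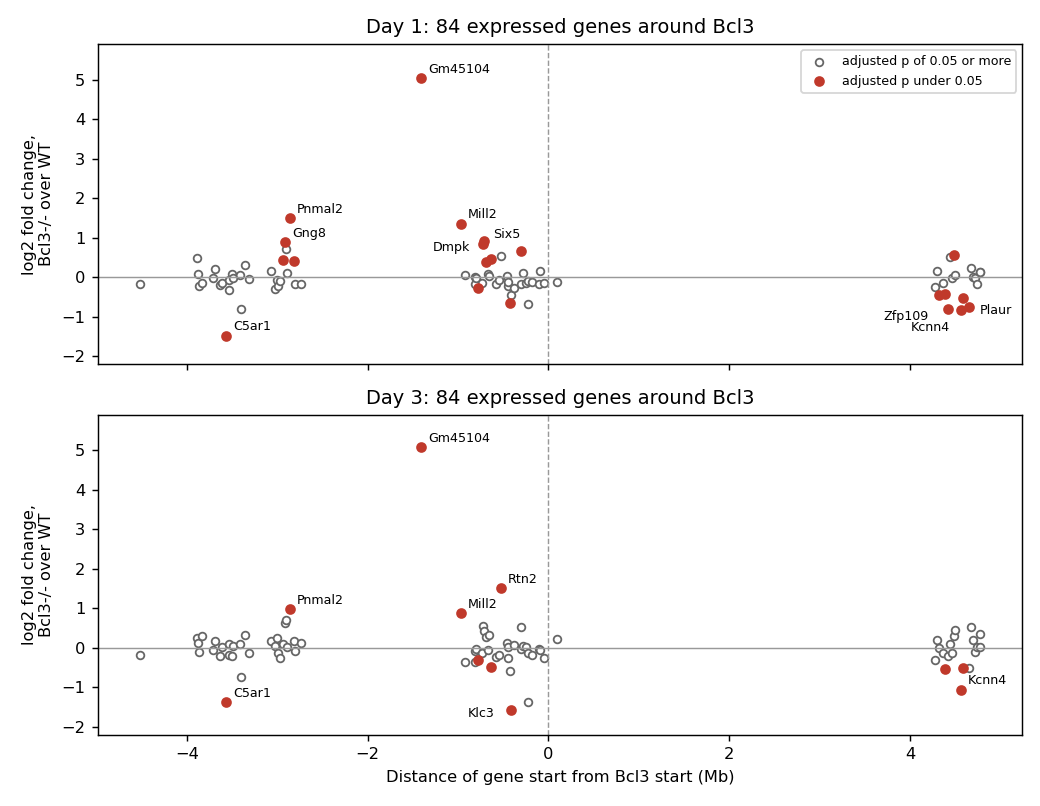
Log2 fold change of each of the 84 members (y axis, libraries labelled Bcl3-/- over WT, edgeR) against the distance of its start from the start of Bcl3 (x axis, Mb), on day 1 (top, 21 called) and day 3 (bottom, 11 called); each point is 1 gene, filled where the adjusted p is under 0.05. Most points lie near 0 at every distance, Gm45104 stands at 5.04 and 5.08, and called genes occur in all the blocks of members.

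The size of the differences was close to that of all genes tested, which include genes below the members' CPM threshold. The median log2 fold change of the members was -0.05 on day 1 and 0.00 on day 3, beside 0.00 and 0.00 for all genes tested. The median absolute log2 fold change was 0.17 on day 1 and 0.20 on day 3 in the members, and 0.19 on both days in all genes. Among genes held to the members' CPM threshold it was 0.17 on both days on other chromosomes. On chromosome 7 it was 0.20 and 0.18 at 5 to 10 Mb from Bcl3, and 0.16 and 0.17 beyond 10 Mb. The members' day 1 value lay among these and their day 3 value above them, and the difference was not tested. An absolute log2 fold change over 1 together with the adjusted p was reached by 4 members (4.76%) on day 1 and 5 (5.95%) on day 3, beside 4.42% and 3.08% of all genes.

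Calls were found both near to and far from Bcl3. Within 1 Mb 8 of 33 members (24.2%) were called on day 1, 5 (15.2%) on day 3 and 2 (6.06%) on both days. Between 2.5 and 5 Mb the counts were 12 of 50 (24%), 5 (10%) and 5 (10%). Only Gm45104 lay between 1 and 2.5 Mb. Of all genes tested, 15.3% were called on day 1, 10.4% on day 3 and 4.9% in the same direction on both days. The 5 members nearest to Bcl3 on the side before it, Bcam, Nectin2, Tomm40, Clptm1 and Clasrp, and Pvr on the side after it, were called on neither day, with log2 fold changes from -0.16 to 0.16 on day 1 and from -0.27 to 0.22 on day 3. Tomm40 encodes the channel of the mitochondrial outer membrane translocase and Bcam a laminin receptor. Of the 20 members after Bcl3, 1 was higher and 6 were lower on day 1, and 0 were higher and 3 lower on day 3. Of the 64 before it, 11 were higher and 3 lower on day 1, and 4 were higher and 4 lower on day 3. Beside these counts, 9.03% of all genes were higher and 6.26% lower on day 1, and 4.78% and 5.6% on day 3. Whether the sides differ from each other or from all genes was not tested.

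Genes of the same chromosome farther away and of other chromosomes, held to the same CPM threshold, give the closest background. At 5 to 10 Mb from Bcl3, 15% of 120 genes were called on day 1, 10.8% on day 3 and 6.67% on both days. Beyond 10 Mb on chromosome 7 the shares of 815 genes were 15.8%, 10.3% and 5.15%. On other chromosomes the shares of 12644 genes were 17.7%, 11.8% and 5.73%. The members' shares of 25%, 13.1% and 9.52% were above these values, but 8 genes make up the last of them and the difference was not tested.

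**Figure D2:**
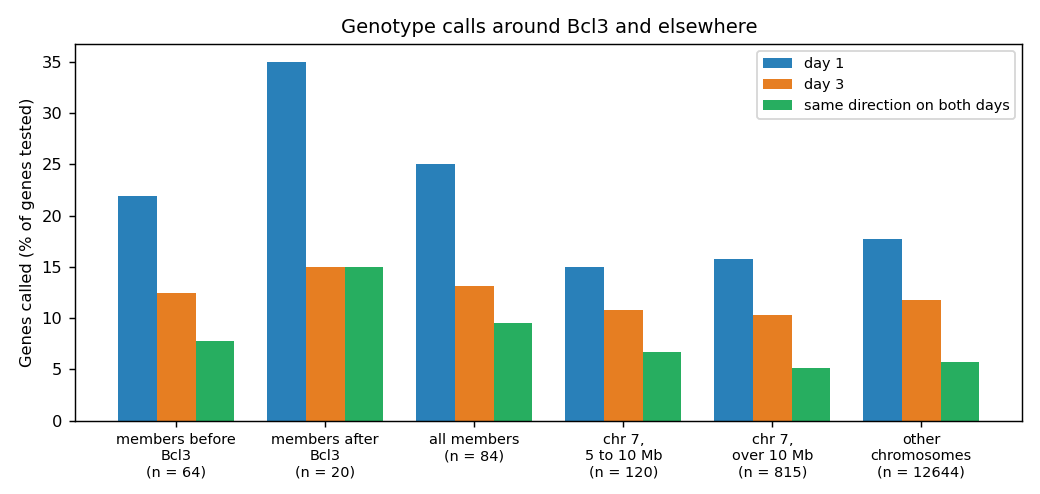
Share of genes called between genotypes (y axis, % of genes tested) on day 1, on day 3 and in the same direction on both days, for members before and after Bcl3, all members, and genes at the same CPM threshold farther along chromosome 7 or on other chromosomes. The bars of all members are at 25, 13.1 and 9.52%, and those of other chromosomes at 17.7, 11.8 and 5.73%.

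Adjacent genes 4.6 Mb after Bcl3 were both lower on both days. Kcnn4 (ENSMUSG00000054342, chr7:24370263-24386690, plus strand) encodes the calcium-activated potassium channel KCa3.1, and Smg9 (ENSMUSG00000002210, chr7:24399619-24422778, plus strand) encodes a partner of the SMG1 kinase of nonsense-mediated mRNA decay. They are 12929 bases apart. The 250 bases before each RefSeq start (GRCm38.p6) are shown here with those of Mill2, since these 3 genes kept their calls in most settings; CpG dinucleotides are in capitals.
Kcnn4, chr7:24370013-24370262, plus strand: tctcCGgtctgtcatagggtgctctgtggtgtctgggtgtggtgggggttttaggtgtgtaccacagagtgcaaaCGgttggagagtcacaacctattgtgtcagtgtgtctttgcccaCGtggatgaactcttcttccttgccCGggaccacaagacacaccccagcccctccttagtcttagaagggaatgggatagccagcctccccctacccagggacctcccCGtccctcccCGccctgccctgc
Smg9, chr7:24399378-24399627, plus strand: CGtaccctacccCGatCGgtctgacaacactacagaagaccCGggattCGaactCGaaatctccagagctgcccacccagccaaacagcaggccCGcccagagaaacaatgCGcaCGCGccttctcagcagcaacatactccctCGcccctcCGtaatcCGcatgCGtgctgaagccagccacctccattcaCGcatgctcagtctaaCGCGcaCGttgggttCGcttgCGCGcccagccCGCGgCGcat
Mill2, chr7:18839716-18839965, plus strand: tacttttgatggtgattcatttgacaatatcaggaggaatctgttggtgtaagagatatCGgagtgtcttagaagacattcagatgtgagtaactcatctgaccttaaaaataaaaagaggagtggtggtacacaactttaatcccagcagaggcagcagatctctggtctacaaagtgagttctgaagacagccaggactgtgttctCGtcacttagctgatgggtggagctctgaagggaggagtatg
Kcnn4 holds 6 CpG dinucleotides in this window, Smg9 24 and Mill2 2, beside a median of 6 over the 32851 promoters of the table and 13 over 80 promoters of the 69 members found in it.

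The windows were searched on both strands for the κB consensus, the 10-base sequence bound by NF-κB dimers. It was found in 7.25% of all promoters, which were not chosen by level, and in 4 of the 80 promoters of members. Counted by gene, these belong to 4 of the 69 members (5.8%): Bbc3, Dmwd, Kcnn4 and Zfp109. In Kcnn4 the match is GGGACCTCCC at chr7:24370230-24370239, from 33 to 24 bases before the start, and it is the only match among the 7 members called on both days whose promoters are in the table. A match in letters is a description and does not show binding.

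Kcnn4 measured 12.8, 13.1 and 11.3 CPM in day 1 WT and 6.80, 5.83 and 8.47 CPM in day 1 Bcl3-/- libraries. The day 3 values were 9.89, 10.8 and 10.1 CPM for WT and 6.15, 3.50 and 5.10 CPM for Bcl3-/-. All 6 Bcl3-/- libraries lay below all 6 WT libraries. Kcnn4 was lower by a log2 fold change of -0.82 (SE 0.18, adjusted p = 0.0108) on day 1 and -1.06 (SE 0.19, adjusted p = 0.00539) on day 3. The day 3 call was kept in all 23 alternative settings, and the day 1 call was lost only without day 1 Bcl3-/- replicate 2 (-0.70, adjusted p = 0.0507). A cutoff on fold change is not among the 23 settings.

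Smg9 measured 15.9, 14.8 and 15.8 CPM in day 1 WT and 12.2, 10.2 and 9.82 CPM in day 1 Bcl3-/- libraries. On day 3 the WT values were 15.9, 16.2 and 15.7 CPM and the Bcl3-/- values 12.4, 9.97 and 11.4 CPM. Again no Bcl3-/- library reached a WT library, and the WT level was nearly the same on both days. Smg9 was lower by a log2 fold change of -0.52 (SE 0.11, adjusted p = 0.00735) on day 1 and -0.50 (SE 0.11, adjusted p = 0.0129) on day 3. Its day 1 call was kept in all 23 settings, and its day 3 call was lost without day 3 Bcl3-/- replicate 2 (adjusted p = 0.0635) and when only the 6 libraries of that day were fitted (adjusted p = 0.0533).

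Plaur, the receptor of urokinase-type plasminogen activator, begins 39706 bases after the end of Smg9. It measured 82.5, 75.1 and 58.5 CPM in day 1 WT and 38.8, 42.9 and 46.3 CPM in day 1 Bcl3-/- libraries, without overlap, and was lower by -0.75 (log2, SE 0.16, adjusted p = 0.00813). On day 3 the WT values were 30.4, 29.1 and 19.5 CPM and the Bcl3-/- values 19.6, 18.5 and 17.5 CPM, with a log2 difference of -0.50 that did not pass (adjusted p = 0.0717). Over time it fell in both genotypes, by 1.45 in WT and by 1.20 in Bcl3-/- libraries on the log2 scale (adjusted p = 3.97e-05 and 0.000227).

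The members of the zinc finger cluster beside them moved in both directions. Zfp111 (ENSMUSG00000087598, chr7:24193947-24211443, minus strand) stood at 18.1, 16.6 and 18 CPM in day 1 WT and at 14.5, 12.6 and 12.1 CPM in day 1 Bcl3-/- libraries. WT libraries of day 3 held 17.7, 15.1 and 17.3 CPM, and Bcl3-/- libraries of day 3 held 11.7, 12.9 and 9.62 CPM. The groups did not overlap on either day, with log2 fold changes of -0.42 (SE 0.12, adjusted p = 0.0296) and -0.54 (SE 0.12, adjusted p = 0.0138). The day 1 call was lost on leaving out any of 5 of the 6 day 1 libraries (adjusted p up to 0.109), the exception being Bcl3-/- replicate 1, and the day 3 call without day 3 WT replicate 1 (adjusted p = 0.0586). The day 3 call was also lost with only the 6 libraries of day 3 (adjusted p = 0.0705). From FPKM the day 1 difference was -0.16 and the day 3 difference -0.12, and neither passed (adjusted p = 0.301 and 0.488).

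Zfp61 went the other way on day 1, from 8.01, 7.56 and 8.28 CPM in WT to 10.6, 11.6 and 12.9 CPM in Bcl3-/- libraries, a log2 fold change of 0.55 (SE 0.10, adjusted p = 0.00396) that was kept in all 23 settings. On day 3 it was at 9.08, 8.65 and 9.66 CPM against 11.2, 11.3 and 10.9 CPM, also without overlap, but the difference of 0.29 did not pass (adjusted p = 0.0901). Of 13 zinc finger members, 1 was higher and 3 were lower on day 1, and 0 were higher and 1 lower on day 3, where all genes gave 9.03% higher and 6.26% lower on day 1 and 4.78% and 5.6% on day 3. The other day 1 calls were Zfp109 (log2 fold change -0.81, adjusted p = 0.027) and Zfp235 (-0.44, adjusted p = 0.0471). Zfp109 was lost without day 1 WT replicate 1 or any day 1 Bcl3-/- library (adjusted p up to 0.104), and Zfp235 without any library except day 1 Bcl3-/- replicate 1 and day 3 Bcl3-/- replicate 3 (adjusted p up to 0.161). The Zfp235 call was also lost with culture as a random effect (adjusted p = 0.0572), with a replicate block by title number (0.0599), with only the 6 libraries of day 1 (0.0817) and with no count filter (0.0796). From log2(FPKM + 1), Zfp109 differed by -0.41 and did not pass (adjusted p = 0.173). Transcripts of Zfp112, Zfp114, Zfp93, Zfp428 and Zfp575 match another annotated transcript over at least 150 bases at 98% identity. None of these matches is another member. For Zfp112 and Zfp428 the match is a gene that shares their exon bases on the opposite strand (Gm44793 and AC161166.1). Zfp111, Zfp61, Zfp109 and Zfp235 had no such match.

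C5ar1 had the lowest log2 fold change of any member on day 1. C5ar1 (ENSMUSG00000049130, chr7:16246743-16259540, minus strand) encodes the receptor for complement fragment C5a, and myeloid cells carry it. Its values were 15.3, 13.5 and 19.4 CPM in day 1 WT and 7.69, 5.35 and 4.12 CPM in day 1 Bcl3-/- libraries. On day 3 they were 24.7, 24.03 and 33.6 CPM for WT and 17.1, 8.55 and 5.52 CPM for Bcl3-/-. The groups did not overlap on either day, although day 3 Bcl3-/- replicate 1 stood well above the other libraries of its group. The log2 fold change was -1.48 (SE 0.35, adjusted p = 0.0136) on day 1 and -1.38 (SE 0.34, adjusted p = 0.0225) on day 3. The day 1 call was lost without day 1 Bcl3-/- replicate 2 (adjusted p = 0.0557) or 3 (adjusted p = 0.0609), and the day 3 call without day 3 WT replicate 1 (adjusted p = 0.0549), WT replicate 3 (adjusted p = 0.059) or Bcl3-/- replicate 2 (adjusted p = 0.0961). From log2(FPKM + 1) neither day passed (adjusted p = 0.063 and 0.0574), nor did day 3 with only its own 6 libraries (adjusted p = 0.0771).

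Markers of macrophages were read beside it. The summed CPM of the 10 markers ran from 300.8 to 484.3 in day 1 WT and from 352.1 to 384.4 in day 1 Bcl3-/- libraries, and 0 of them were called on day 1. On day 3 the sums were 686.8 to 1031 in WT and 435.1 to 839.1 in Bcl3-/- libraries, and 2 markers, Csf1r (log2 fold change -0.90, adjusted p = 0.00825) and Cx3cr1 (-3.29, adjusted p = 0.00146), were lower. None of the defining markers was at 0. On day 1 Csf1r differed by -0.54 and did not pass (adjusted p = 0.0546). In bulk RNA, fewer cells of a type and less RNA per cell cannot be told apart, and the part of macrophages in the C5ar1, Kcnn4 and Plaur values was not tested.

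On the same side of Bcl3 lay the 3 genes that were higher on both days. Pnmal2 (ENSMUSG00000070802, chr7:16944682-16948828, plus strand) belongs to the paraneoplastic Ma antigen family, whose genes derive from retrotransposon gag sequences. It was at 2.26, 2.12 and 3.60 CPM in day 1 WT and at 6.35, 8.62 and 7.77 CPM in day 1 Bcl3-/- libraries. On day 3 the WT values were 4.86, 3.50 and 7.53 CPM and the Bcl3-/- values 8.78, 10.2 and 12.5 CPM. No groups overlapped within a day, but the highest day 3 WT value was within the day 1 Bcl3-/- range. The log2 fold change was 1.5005 (SE 0.28, adjusted p = 0.0047) on day 1, kept in all 23 settings, and 0.97 (SE 0.27, adjusted p = 0.0383) on day 3. The day 3 call was lost without day 3 WT replicate 1 (adjusted p = 0.14) or 2 (0.109), without day 3 Bcl3-/- replicate 2 (0.0931) or 3 (0.0959) and without day 1 Bcl3-/- replicate 3 (0.0526). It was also lost with only the 6 libraries of day 3 (adjusted p = 0.0794) and from log2(FPKM + 1), where the difference was 0.63 (adjusted p = 0.102).

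Mill2 (ENSMUSG00000040987, chr7:18839966-18865402, plus strand) encodes a cell-surface protein related to MHC class I. It measured 1.76, 1.64 and 2.37 CPM in day 1 WT and 3.97, 4.94 and 6.00 CPM in day 1 Bcl3-/- libraries. The corresponding day 3 values were 4.01, 5.22 and 6.02 CPM for WT and 8.91, 8.97 and 10.3 CPM for Bcl3-/-. The day 3 WT range covered almost the same values as the day 1 Bcl3-/- range. The log2 fold change was 1.36 (SE 0.21, adjusted p = 0.00183) on day 1, kept in all 23 settings, and 0.88 (SE 0.19, adjusted p = 0.0146) on day 3, lost without day 3 WT replicate 1 (0.74, adjusted p = 0.0633) and from FPKM with a pseudocount of 1 (0.69, adjusted p = 0.064) or 0.1 (0.82, adjusted p = 0.0866). Mill2 rose over time in both genotypes, by 1.40 in WT and 0.92 in Bcl3-/- libraries (log2, adjusted p = 0.000271 and 0.00361).

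Gm45104 (ENSMUSG00000109209, chr7:18396516-18400865, minus strand) is annotated as a single-exon transcript of the class awaiting experimental evidence, and no promoter of it was matched. It had 5, 7 and 3 counts in day 1 WT and 158, 188 and 133 counts in day 1 Bcl3-/- libraries. By day 3 there were 9, 7 and 6 counts in WT and 143, 266 and 181 counts in Bcl3-/- libraries. It reached the level threshold only through the Bcl3-/- libraries and so had to differ. The log2 fold change was 5.04 (SE 0.42) on day 1 and 5.08 (SE 0.39) on day 3, and the call was kept on both days in all 23 settings. Without it and Zfp296, 20 members were called on day 1, 10 on day 3 and 7 on both days. These were 24.4, 12.2 and 8.54% of 82 members, against 15.3, 10.4 and 4.9% of all genes.

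Sympk (ENSMUSG00000023118, chr7:19024377-19054618, plus strand) encodes symplekin, the scaffold of the complex that cleaves mRNA 3′ ends. It was the most abundant of the 8 in CPM, at 84.6, 87.5 and 91.1 CPM in day 1 WT and 72.0, 76.9 and 70.9 CPM in day 1 Bcl3-/- libraries. WT libraries of day 3 held 79.0, 67.8 and 69.5 CPM and Bcl3-/- libraries 63.1, 58.4 and 53.8 CPM. The groups were separate on each day but the differences were small, -0.26 (SE 0.08, adjusted p = 0.0436) on day 1 and -0.30 (SE 0.08, adjusted p = 0.0313) on day 3. The calls were lost on leaving out any of 8 libraries on day 1 (adjusted p up to 0.125) and any of 7 on day 3 (adjusted p up to 0.138), on day 1 every library of that day, day 3 WT replicate 3 and day 3 Bcl3-/- replicate 2, and on day 3 WT replicate 1, Bcl3-/- replicates 2 and 3, the 3 day 1 Bcl3-/- libraries and day 1 WT replicate 2. From log2(FPKM + 1) neither day passed (adjusted p = 0.223 and 0.0636), nor did day 3 with only its own 6 libraries (adjusted p = 0.14). The day 1 call was also lost with no count filter (adjusted p = 0.117) and with a replicate block by title number (adjusted p = 0.0563).

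**Figure D3:**
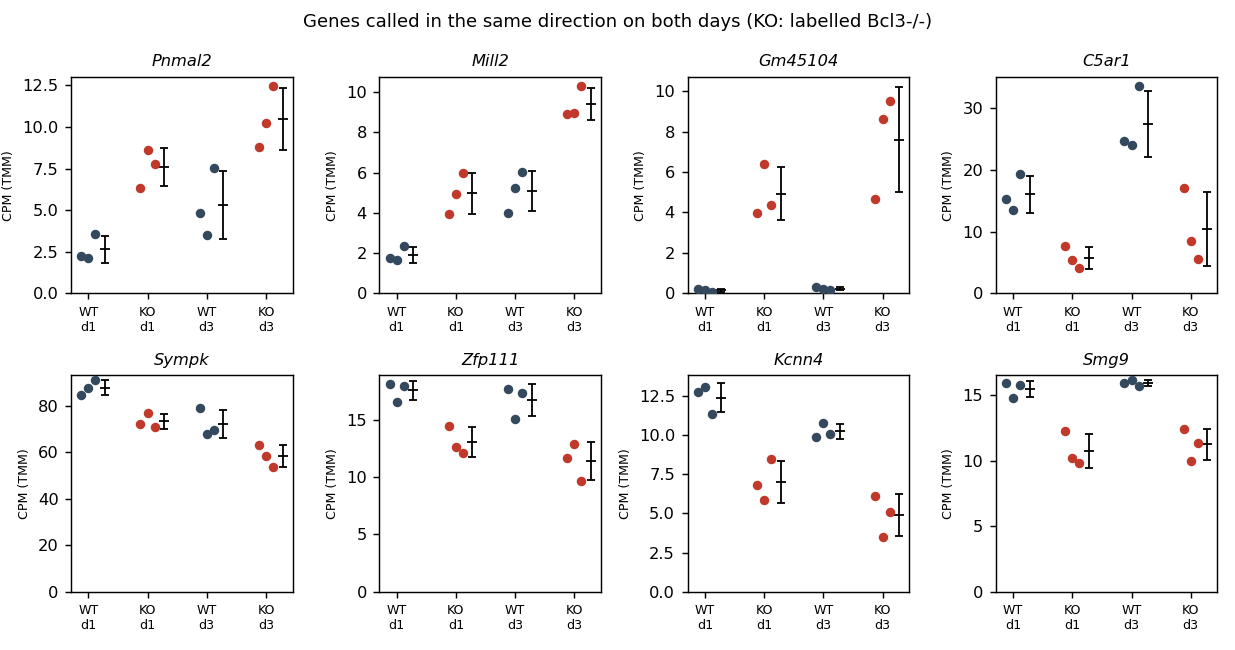
TMM-normalized CPM (y axis, from 0) in each of the 12 libraries for the 8 members called in the same direction on both days; points are libraries (KO, labelled Bcl3-/-; d1 and d3, days 1 and 3) and the bar beside each group is the mean ± SD of 3. In all 8 the genotypes do not overlap within a day, and Gm45104 is close to 0 in the 6 WT libraries.

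Among the members between 0.7 and 0.4 Mb before Bcl3, Eml2 was called on both days in opposite directions, Rtn2 and Klc3 were called on day 3, and Ercc2 and Fbxo46 on day 1. Eml2 (chr7:19176421-19206482, plus strand), a microtubule-associated protein gene, was at 6.96, 8.93 and 10.7 CPM in day 1 WT and at 12.2, 12.6 and 12.2 CPM in day 1 Bcl3-/- libraries. At the later time WT was at 15.7, 13.6 and 14.9 CPM and Bcl3-/- at 10.1, 10.7 and 10.6 CPM. The Bcl3-/- libraries were thus all above WT on day 1 and all below WT on day 3. The log2 fold change was 0.47 (SE 0.13, adjusted p = 0.0324) on day 1 and -0.50 (SE 0.13, adjusted p = 0.0327) on day 3. Eml2 rose over time in WT by 0.72 (SE 0.13, adjusted p = 0.00102), while the difference over time in Bcl3-/- libraries was -0.24 and did not pass (adjusted p = 0.19).

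The interaction of genotype and day for Eml2 was -0.96 (adjusted p = 0.0357), the single member called, or 1.19% beside 1.12% of all genes. It was lost on leaving out any of 10 of the 12 libraries (adjusted p from 0.063 to 0.134) and kept without day 1 WT replicate 3 or day 3 Bcl3-/- replicate 1. The day 1 call of Eml2 was lost without 5 of the libraries (adjusted p up to 0.107), namely day 1 WT replicates 1 and 2 and the 3 day 1 Bcl3-/- libraries, and the day 3 call was lost without any of 9 (adjusted p up to 0.124), all but day 1 WT replicates 1 and 3 and day 3 WT replicate 2. From log2(FPKM + 1) Eml2 passed on neither day (adjusted p = 0.0864 and 0.0618), nor did day 1 with only its own 6 libraries (adjusted p = 0.0668).

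Rtn2 (chr7:19282624-19296160), a reticulon gene of the endoplasmic reticulum, stood at 1.31, 1.80 and 2.34 CPM in day 1 WT and at 2.60, 2.97 and 2.47 CPM in day 1 Bcl3-/- libraries, a log2 difference of 0.54 that did not pass (adjusted p = 0.131). On day 3 it stood at 1.76, 2.46 and 2.36 CPM in WT and at 5.43, 7.51 and 5.89 CPM in Bcl3-/- libraries, higher by 1.51 (SE 0.22, adjusted p = 0.00235). It rose over time in Bcl3-/- libraries by 1.23 (adjusted p = 0.00109), and the difference in WT was 0.25 (adjusted p = 0.413).

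Klc3 (chr7:19394437-19404104, minus strand), a kinesin light chain gene, was at 4.75, 5.28 and 3.89 CPM in day 1 WT and at 3.97, 3.27 and 2.87 CPM in day 1 Bcl3-/- libraries, with overlap and a log2 difference of -0.46 (adjusted p = 0.143). On day 3 it was at 6.26, 5.68 and 4.04 CPM in WT and at 1.95, 1.68 and 1.68 CPM in Bcl3-/- libraries, lower by -1.58 (SE 0.21, adjusted p = 0.00181). The day 3 calls of Rtn2 and Klc3 were kept in all 23 settings. Their interactions, 0.98 for Rtn2 and -1.12 for Klc3, did not pass (adjusted p = 0.189 and 0.0963), so a difference between the days was not shown for either.

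Ercc2, the XPD helicase of transcription factor TFIIH and of nucleotide excision repair, overlaps Klc3 on the opposite strand. It was at 6.24, 6.62 and 6.58 CPM in day 1 WT and at 4.80, 4.33 and 3.33 CPM in day 1 Bcl3-/- libraries, lower by -0.64 (SE 0.19, adjusted p = 0.0396). Its day 3 values, 6.33, 4.88 and 4.64 CPM for WT and 3.94, 2.66 and 4.05 CPM for Bcl3-/-, gave a difference of -0.58 that did not pass (adjusted p = 0.0798). The day 1 call was lost without any of 5 libraries (adjusted p up to 0.134), the day 1 WT libraries and replicates 2 and 3 of day 1 Bcl3-/-. From FPKM the day 1 difference was -0.26 with a pseudocount of 1 (adjusted p = 0.529) and -0.40 with 0.1 (adjusted p = 0.521). The library kit does not mark strand, so reads from the bases that Ercc2 and Klc3 share cannot be told apart. The same limit holds for 19 members that share exon bases with a gene on the opposite strand, Fbxo46 and Qpctl among them.

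**Figure D4:**
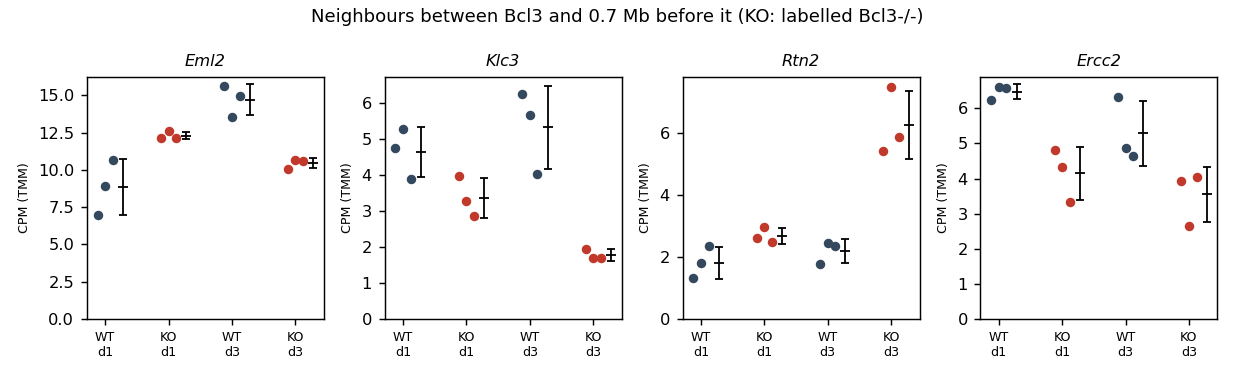
TMM-normalized CPM (y axis, from 0) in each of the 12 libraries for Eml2, Klc3, Rtn2 and Ercc2; points are libraries (KO, labelled Bcl3-/-; d1 and d3, days 1 and 3) and the bar beside each group is the mean ± SD of 3. Eml2 in Bcl3-/- libraries is above WT on day 1 and below WT on day 3, and Rtn2 and Klc3 separate most on day 3.

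Six5, a homeobox transcription factor gene, and Dmpk, a kinase gene of striated muscle, lie next to each other 0.7 Mb before Bcl3. Six5 was at 5.65, 5.94 and 8.02 CPM in day 1 WT and at 11.7, 12.6 and 12.8 CPM in day 1 Bcl3-/- libraries, higher by 0.91 (SE 0.15, adjusted p = 0.00252). This call was kept in all 23 alternative settings, with log2 fold changes from 0.69 to 1.09. On day 3 it was at 11.01, 11.4 and 14.7 CPM in WT and at 17.1, 15.2 and 18.1 CPM in Bcl3-/- libraries, without overlap, but the difference of 0.43 did not pass (adjusted p = 0.0798). Dmpk, singled out after its values were seen, was higher on day 1 by 0.85 (adjusted p = 0.0214) and had the largest rise over time of any member, 1.85 in WT and 1.56 in Bcl3-/- libraries. The summed CPM of the 9 detected skeletal muscle markers ran from 12.2 to 16.8 in day 1 WT and from 19.1 to 42.3 in day 1 Bcl3-/- libraries, and 3 of them were higher on day 1. On day 3 the sums overlapped, 9.81 to 13.4 against 12.45 to 25.6, and 1 was higher. Their part in the Dmpk values was not tested.

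By function, counts of called members can be read beside the shares of all genes, 9.03% higher and 6.26% lower on day 1, 4.78% and 5.6% on day 3, and 2.82% and 2.08% on both days. These lists are short, so that a single gene makes up a large share. The members with a role in DNA repair (Ercc1, Ercc2 and Xrcc1) held 1 call on day 1, Ercc2, and 0 on day 3. Of 8 members in RNA processing and transcription machinery, 2 were lower on both days, Sympk and Smg9, and 0 were higher. Of 15 in membrane traffic and cytoskeleton, 3 were higher on day 1 (Ccdc8, Trappc6a and Eml2), and on day 3 1 was higher (Rtn2) and 2 were lower (Eml2 and Klc3). Of 15 signaling enzymes, channels and receptors, 3 were higher (Gng8, Dmpk and Fbxo46) and 1 was lower (Kcnn4) on day 1, and on day 3 only Kcnn4 was called. Gng8, a G protein gamma subunit, differed by 0.89 on day 1 (adjusted p = 0.0248) and Fbxo46, an F-box protein, by 0.40 (adjusted p = 0.0208), and these calls ended without single day 1 libraries (adjusted p up to 0.109 and 0.0931), Gng8 without WT replicate 1 or 2 or any Bcl3-/- library and Fbxo46 without replicate 1 or 2 of WT or 2 or 3 of Bcl3-/-. Of 5 transcription factors other than zinc fingers 1 was higher on day 1 (Six5), of 5 adhesion and surface proteins 1 was lower on day 1 (Plaur), and of 3 cell death and complement receptor genes 1 was lower on both days (C5ar1). The apoptosis gene Bbc3 differed by 0.08 on day 1 and -0.22 on day 3, and the mitochondrial genes Tomm40 and Opa3 and the repair gene Xrcc1 were also called on neither day. Of the 14 members in none of these lists, Dact3, a Dishevelled-binding regulator of Wnt signaling, was called beside Pnmal2, Mill2 and Gm45104 and was higher on day 1 by 0.43 (adjusted p = 0.0167).

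Counting libraries instead of tests, 18 members (21.4%) had genotypes that did not overlap on either day and differed in the same direction, against 15.1% of all genes. At the same CPM threshold the share was 20% at 5 to 10 Mb from Bcl3, 15.8% farther along chromosome 7 and 17.2% on other chromosomes. Beside the 8 called on both days these were Dmpk, Six5, Fbxo46, Rtn2 and Zfp61, higher, and Ppp5c, Opa3, Ercc2, Clptm1 and Zfp180, lower.

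More members differed between days than between genotypes. From day 1 to day 3, 34 members (40.5%) differed in WT, 14 higher and 20 lower, against 38.5% of all genes, 20.6% higher and 17.9% lower. In Bcl3-/- libraries 26 (31%) differed, 10 higher and 16 lower, against 33.4% of all genes, 16.2% higher and 17.2% lower. The median log2 change over time was -0.11 in WT and -0.07 in Bcl3-/- libraries. Members higher on day 3 in both genotypes included Dmpk, Mill2, Kptn and the homeobox gene Meis3, and those lower in both included Plaur, Nectin2 and Zfp180.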

How the data were processed

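Libraries of polyadenylated RNA, made with SMART-seq v4, were sequenced from 12 samples. The authors trimmed reads with Trim Galore, aligned them to GRCm38 with TopHat2 and counted reads per gene with HTSeq, and deposited raw counts for 49585 genes. The authors also deposited FPKM values from Cufflinks, scaled for length and depth, which served only for levels and as an alternative. Versions, the strand setting and the annotation release are not given in the sources used here. Reads outside genes, 12.3 to 14.7% per library, stayed out of library sizes. Depth ran from 20009732 to 41953891 counts.

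Gene positions came from GENCODE M21. Counts passing filterByExpr (16318 genes) were normalized by TMM (factors 0.951 to 1.05) and tested with edgeR's quasi-likelihood test in 1 fit of 4 groups, with Benjamini-Hochberg adjustment within each contrast at 0.05. The biological coefficient of variation was 13.5%. The codes in the labels, read as cultures, link each day 1 library with a day 3 library. The residuals of linked libraries about their group means had correlations of 0.243 to 0.327 in WT and of -0.157 to -0.017 in Bcl3-/- cultures. Copies were sought with blastn 2.17.0 in the transcripts of the annotation. Promoters are RefSeq sequences of GRCm38.p6.

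The code was tested on simulated data. The members, gene lists and tests were chosen with earlier results of these data known. Named were the 5 members nearest to Bcl3 on each side, those called on both days, the 5 largest rises and falls per day among called members without overlap, those called in opposite directions or in the interaction, up to 2 members of each list with the smallest p, and those next to the level threshold. Alternatives were other normalizations, filters and tools, FPKM, replicate blocks, narrower windows and leaving out each library or culture. Tests ran in edgeR 4.0.16, DESeq2 1.42.0 and limma 3.58.1 under R 4.3.3, and tables and figures were made with matplotlib 3.10.9 and pandas 2.3.3 under Python 3.11.15.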

Additional observations from a re-analysis of the deposited data

Results flagged for a closer look

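Eml2 was singled out because its genotype difference itself differed between the days: the interaction was -0.96 on the log2 scale (edgeR, adjusted p = 0.0357), with all 3 Bcl3-/- libraries above all 3 WT libraries on day 1 and below all 3 on day 3. It passed with DESeq2 (-0.95, adjusted p = 0.000354), with culture as a fixed block (-0.97, adjusted p = 0.0462) and with culture as a random effect (-0.95, adjusted p = 0.0116). It did not pass on leaving out any of 10 of the 12 libraries. Called differences of opposite direction on the 2 days occurred in 1 member and in 23 of all genes tested.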

How the results depend on the processing

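No call of a named gene changed direction in the alternatives in which it was recomputed. Named genes were recomputed only on days on which they were called, so the other directions were not checked. The balance of higher and lower members did change: for both days it was 3 higher and 5 lower, but 5 and 3 without day 1 WT replicate 3 and 3 and 1 without day 1 Bcl3-/- replicate 2, and for summed cultures 9 and 10, but 12 and 11 with DESeq2 and 13 and 10 with no count filter. Of 644 recomputed calls of named genes 525 kept their side of the threshold and 119 lost it, and of 117 recomputed medians 112 moved by less than their spread. Requiring an absolute log2 fold change over 1 left 4 members on day 1, 5 on day 3, 3 (3.57%) over time in WT and 3 (3.57%) in Bcl3-/- libraries, 0 in the interaction, 2 (2.38%) on both days and 4 (4.76%) for summed cultures. Of all genes it left 4.42%, 3.08%, 9.64%, 8.96%, 0.766%, 1.45% and 2.71%, in the same order. With only the 6 libraries of a day, 20 members were called on day 1 (23.8% against 17.5% of all genes). On day 3 6 were called (7.14% against 5.26%) and on both days 3 (3.57% against 3.38%). In the FPKM table, with a pseudocount of 1 or 0.1, 13 were called on day 1, 5 on day 3, 4 on both days and 0 in the interaction. These were 15.7, 6.02, 4.82 and 0% of 83 members. With a pseudocount of 1, 4.14, 2.97, 0.892 and 0.0144% of all genes were called, and with 0.1, 4.3, 2.82, 0.91 and 0.0115%. That table includes genes of any level, so these are not shares of genes like the members. Mill2, Pnmal2, C5ar1 and Eml2 each lost a call or calls there, and passed on both days once genes that did not reach 1 FPKM in 3 libraries were removed from that table. In the reduced table Zfp111 still passed on neither day (limma, adjusted p = 0.2002 and 0.347). Sympk, Zfp109 and Ercc2 still did not pass on day 1 (adjusted p = 0.131, 0.0787 and 0.354). Within 1 Mb the counts on day 1, day 3 and both days were 8, 5 and 2 (24.2, 15.2 and 6.06% of 33 members). Within 2.5 Mb they were 9, 6 and 3 (26.5, 17.6 and 8.82% of 34). All genes gave 15.3, 10.4 and 4.9%. DESeq2 called 2 in the interaction (2.38% against 2.83% of all genes), and so did the fit with no count filter (2.38% against 1.8%). Without the 2 members that passed through 1 genotype, an alternative chosen after seeing the data, the counts on day 1, day 3 and both days were 20, 10 and 7. The summed count was not recomputed without them.

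Leaving out 1 library gave 8 to 24 of 84 members on day 1, 5 to 14 on day 3, 3 to 9 on both days and 0 to 1 in the interaction. The same fits called 7.51 to 17.4%, 4.16 to 11.2%, 2.28 to 5.85% and 0.00597 to 2.84% of all genes. The time comparison gave 23 to 38 members for WT (27.7 to 40.6% of all genes) and 20 to 33 for Bcl3-/- (24.7 to 33.4%). Leaving out 1 culture gave 2 to 22 members for summed counts (0.946 to 15.4% of all genes). The causes were not tested, beyond the smaller number of libraries. A replicate block by title number gave 21, 12 and 8 members on day 1, day 3 and both days, 33 and 26 over time and 2 in the interaction. These were 25, 14.3, 9.52, 39.3, 31 and 2.38% of the members. Of all genes 15.1, 10.9, 5.48, 37.4, 32.5 and 0.956% were called, in the same order. Between genotypes the title numbers did not pair the samples, with correlations of -0.065 to 0.044 on day 1 and 0.058 to 0.214 on day 3. A replicate block by culture gave 36 members over time in WT (42.9% against 40.2% of all genes). It gave 35 over time in Bcl3-/- libraries (41.7% against 35.1%) and 2 in the interaction (2.38% against 1.79%). With 3 cultures per genotype, small differences such as that of Sympk depended on single libraries, and members with few counts, such as Zfp296 and Mypopos, had wide errors.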
